A study of Mus musculus with 42 samples.

Results

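The core loop of the mouse circadian clock was followed across 42 RNA-seq libraries through 8 genes: the activators Arntl (also called Bmal1), Clock and Npas2, and the repressors Per1, Per2, Per3, Cry1 and Cry2. They are 8 of the 49585 gene identifiers in the deposited count table, and they were chosen by their known function, as a textbook list, with no threshold on a measured value. The family as a whole was picked with earlier results of these same libraries known, so the counts and p-values below are not independent evidence that clock genes stand apart from other genes. The study asked how mutant p53 alleles alter the transcriptome of irradiated and unirradiated organs relative to mice without p53. All mice were 4 weeks old, on a mixed background of BALB/C and C57BL6 in equal parts. They carried the alleles p53 AD/- ("AD"), p53 RP/- ("RP"), p53 +/- ("Het", with 1 wild-type allele) or were p53-null ("Null"). The AD and RP mice each had a mutant allele over a null allele, the Null mice had no functional allele in any cell, and no group had 2 wild-type alleles. Irradiated thymus, taken 4 h after irradiation, came from 4 mice each of AD, RP, Het and Null. Unirradiated ("basal") thymus came from 3 AD, 3 Het and 2 Null mice. Unirradiated intestine, liver and pancreas came from 3 AD and 3 Null mice each, and the animal numbers show that the same 3 AD mice (AD-700, AD-701 and AD-702) and the same 3 Null mice (Null-859, Null-923 and Null-1087) gave all basal AD and Null organs, except that no thymus library of Null-1087 was analysed here. The labels used here give neither the time of day of harvest, nor sex, nor the irradiation dose, so a difference in harvest time between groups cannot be told apart from genotype or irradiation.

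In the mammalian clock, ARNTL pairs with CLOCK or its paralogue NPAS2 and binds E-box elements in the promoters of the Per and Cry genes and of output genes such as Dbp and the REV-ERB genes Nr1d1 and Nr1d2. PER and CRY proteins accumulate, enter the nucleus and block that activation, while REV-ERB and ROR proteins act on Arntl, Npas2 and Cry1 through their own elements, so that transcripts of activators and repressors peak at different times of day. The liver is a classical organ for strong daily rhythms of these transcripts, whereas the thymus is known for low-amplitude ones.

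The promoters of 7 of the 8 genes were present in the RefSeq promoter table (build GRCm38.p6, 250 bases before to 50 after the annotated start, 11 windows in all), and Per2 had no entry. Each was searched on both strands for the E-box CACGTG, the related E-prime box CACGTT, which reads AACGTG on the other strand, the D-box TTATGTAA bound by DBP, TEF, HLF and NFIL3, the core AGTAGGTNA of the element bound by REV-ERB and ROR, and the CRE TGACGTCA. The 4 windows below each hold a match and together show every kind of element found. They were not matched to the test results, and Npas2, with no match, is not among them. Capitals mark the matches, and positions are those of a match's first base, with the start site at 1 and the base before it at -1.
Arntl, chr7:113207261-113207560, plus strand, REV-ERB/ROR core at -8 and 29: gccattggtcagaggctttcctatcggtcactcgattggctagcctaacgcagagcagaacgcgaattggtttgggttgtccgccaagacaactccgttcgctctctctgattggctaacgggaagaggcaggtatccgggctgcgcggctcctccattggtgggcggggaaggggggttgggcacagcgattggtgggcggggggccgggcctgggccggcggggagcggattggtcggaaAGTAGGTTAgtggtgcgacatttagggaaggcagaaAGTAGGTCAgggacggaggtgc
Per1, chr11:69098699-69098998, plus strand, E-box at -166: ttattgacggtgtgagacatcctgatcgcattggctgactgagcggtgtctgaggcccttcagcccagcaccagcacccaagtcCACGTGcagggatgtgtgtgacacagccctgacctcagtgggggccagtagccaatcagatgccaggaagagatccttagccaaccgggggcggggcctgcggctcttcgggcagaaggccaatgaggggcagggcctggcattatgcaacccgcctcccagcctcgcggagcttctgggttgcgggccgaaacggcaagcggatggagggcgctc
Per3, chr4:151044616-151044915, minus strand, D-boxes at -205 and -158: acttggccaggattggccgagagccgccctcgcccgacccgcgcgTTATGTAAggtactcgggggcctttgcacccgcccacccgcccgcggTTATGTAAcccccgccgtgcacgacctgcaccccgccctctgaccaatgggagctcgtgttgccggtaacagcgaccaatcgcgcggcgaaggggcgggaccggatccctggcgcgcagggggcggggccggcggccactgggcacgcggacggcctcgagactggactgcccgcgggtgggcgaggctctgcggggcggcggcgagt
Cry1, chr10:85185005-85185304, minus strand, E-prime box at -79 and E-box at -60: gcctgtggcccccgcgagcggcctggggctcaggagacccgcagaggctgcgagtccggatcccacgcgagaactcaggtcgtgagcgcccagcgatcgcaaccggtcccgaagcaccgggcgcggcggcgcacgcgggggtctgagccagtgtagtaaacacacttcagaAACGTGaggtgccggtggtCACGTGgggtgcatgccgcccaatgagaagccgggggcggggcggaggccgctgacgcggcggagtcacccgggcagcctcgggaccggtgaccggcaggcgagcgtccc
Among 32851 RefSeq promoters of the same length, the E-box occurred in 7.15%, the E-prime box in 4.68%, the CRE in 1.79%, the D-box in 0.938% and the REV-ERB/ROR core in 0.591%. The Cry2 window held an E-prime box at -166. The 3 Clock windows, the Npas2 window and the second Per1 window held none of the 5 strings, which says only that these letters are absent from those 300 bases.

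Libraries held between 19861977 and 34772519 counts. Levels are given in CPM, counts scaled to a fixed library size after TMM, a scaling that assumes most genes do not differ between libraries. All 8 clock genes passed the filter on low counts in every fit, with counts per library of 1441 to 5624 for Clock, 192 to 3428 for Arntl, and as few as 11 for Npas2 in 1 AD pancreas. Exons of Cry2 share 295 bases (4.67% of its exon length) with D930015M05Rik on the other strand, and those of Arntl share 33 bases with Gm45355. The strand setting of the counting is not given in the sources used here, so reads from those bases cannot be told apart. In the check of the genotype and irradiation labels, Cdkn1a, the p53 target that encodes p21, averaged 28.2 CPM in irradiated Het thymus and 2.36 CPM in irradiated Null thymus. Trp53 itself passed the test in AD, RP and Het thymus against Null, but not in AD against Null liver (log2 fold change 0.19 ± 0.22), intestine (0.61) or pancreas (-0.31). In intestine the AD and Null groups did not overlap for Trp53 (means of 15.4 and 10.1 CPM). Null libraries held Trp53 counts in every organ, with means of 13.1 CPM in irradiated thymus and 14.4 CPM in basal thymus. The Null means were 7.15 CPM in liver and 12.2 CPM in pancreas. The female-specific Xist and the Y-linked Ddx3y, used to look for mixed animals, were both high in 1 irradiated Het thymus library (Het-595: Xist 770.5 CPM, Ddx3y 132.5 CPM), so results for the 8 genes and for the other lists in irradiated Het thymus are also given without it. Among the basal AD and Null mice, AD-702 and Null-859 were the 2 with high Xist. Defining markers were present in the labelled organs: hepatocyte markers made up 10.5% to 12.6% of counts in AD liver and 11.97% to 13.7% in Null liver, and acinar markers 38.3% to 39.2% in AD pancreas and 30.2% to 37.8% in Null pancreas. Acinar markers also reached 7.87% in the intestine of AD-702 and 4.75% in that of Null-923.

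Per kilobase of merged exon, Clock had the highest mean level of the family in intestine, liver and pancreas and Cry1 in thymus, while Per3 was lowest in thymus, intestine and liver and Npas2 in pancreas. In thymus, Cry1 averaged 11.9 CPM per kb and Arntl 8.79, against 2.595 for Clock and 0.448 for Per3. In pancreas, Clock averaged 15.1 CPM per kb, Per1 8.90, and Npas2 0.833. In intestine, Npas2, the CLOCK paralogue, reached 6.20 CPM per kb, below Arntl (7.93) and Clock (11.7). In liver, Clock had 12.7 and Cry1 9.78 CPM per kb, and the order at the low end was Npas2 at 1.53 and Per3 at 1.48. These averages pool AD and Null mice of a tissue, and the lowest gene differed by genotype: Npas2 at 0.673 CPM per kb in AD liver, where Per3 had 2.466, and Per3 at 1.059 CPM per kb in Null pancreas, where Npas2 had 1.199.

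**Figure D1:**
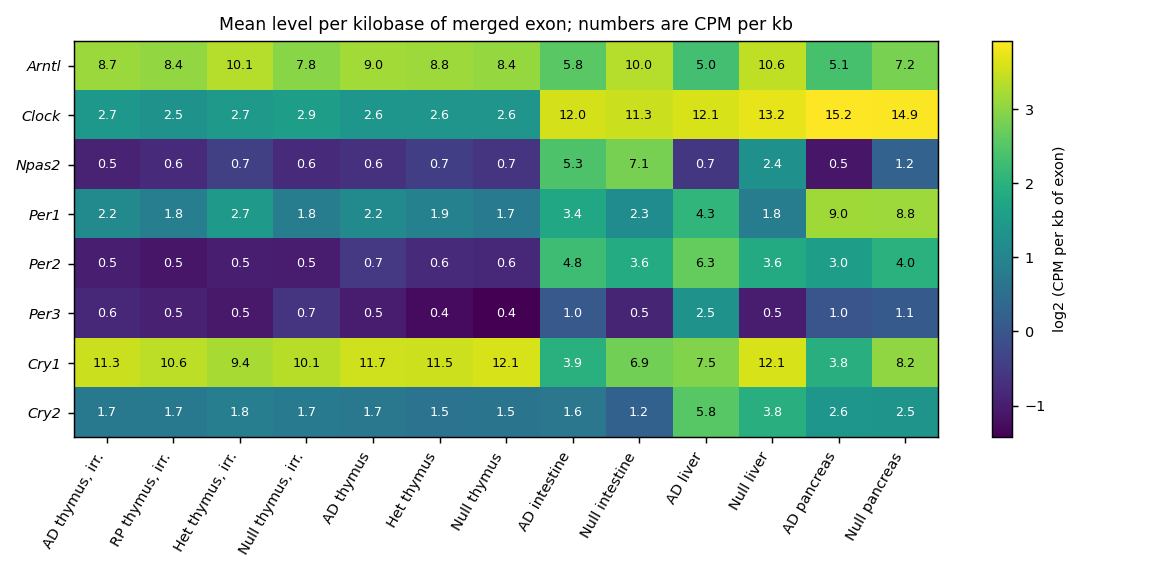
Mean level of the 8 clock genes (rows) in the 13 groups (columns), in TMM-scaled CPM per kilobase of merged exon on a log colour scale. Clock is low in all thymus groups and high in the other organs, Npas2 stands out in intestine and Per1 in pancreas.

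The members differed in how far they ranged over the 13 groups. Arntl, the obligate partner of the activator pair, spanned 2.12-fold, with 37.7 CPM in AD liver as the lowest group mean and 79.7 CPM in Null liver as the highest; none of the 12 neighbouring pairs of groups in its order was free of overlap. Clock spanned 6.07-fold, led by AD pancreas (208.6 CPM) and ending with irradiated RP thymus (34.4 CPM). Npas2 ranged 15.1-fold, with AD pancreas at 2.24 CPM and Null intestine at 33.8 CPM. Among the repressors, Per2 ranged 13.6-fold (AD liver 37.0, irradiated RP thymus 2.73 CPM) and Per3 6.65-fold (AD liver 23.7, Null basal thymus 3.56 CPM). Per1 ranged 5.31-fold (AD pancreas 50.6, Null basal thymus 9.52 CPM) and Cry2 4.94-fold (AD liver 36.7, Null intestine 7.44 CPM). Cry1 ranged 3.18-fold, and its order ran the other way, with AD pancreas at the bottom (12.7 CPM) and Null basal thymus at the top (40.4 CPM). Of the 12 neighbouring pairs, 4 did not overlap for Clock and Cry2, 3 for Npas2 and Per1, and 1 for Per2, Per3 and Cry1. AD liver had the highest group mean of Per2, Per3 and Cry2.

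**Figure D2:**
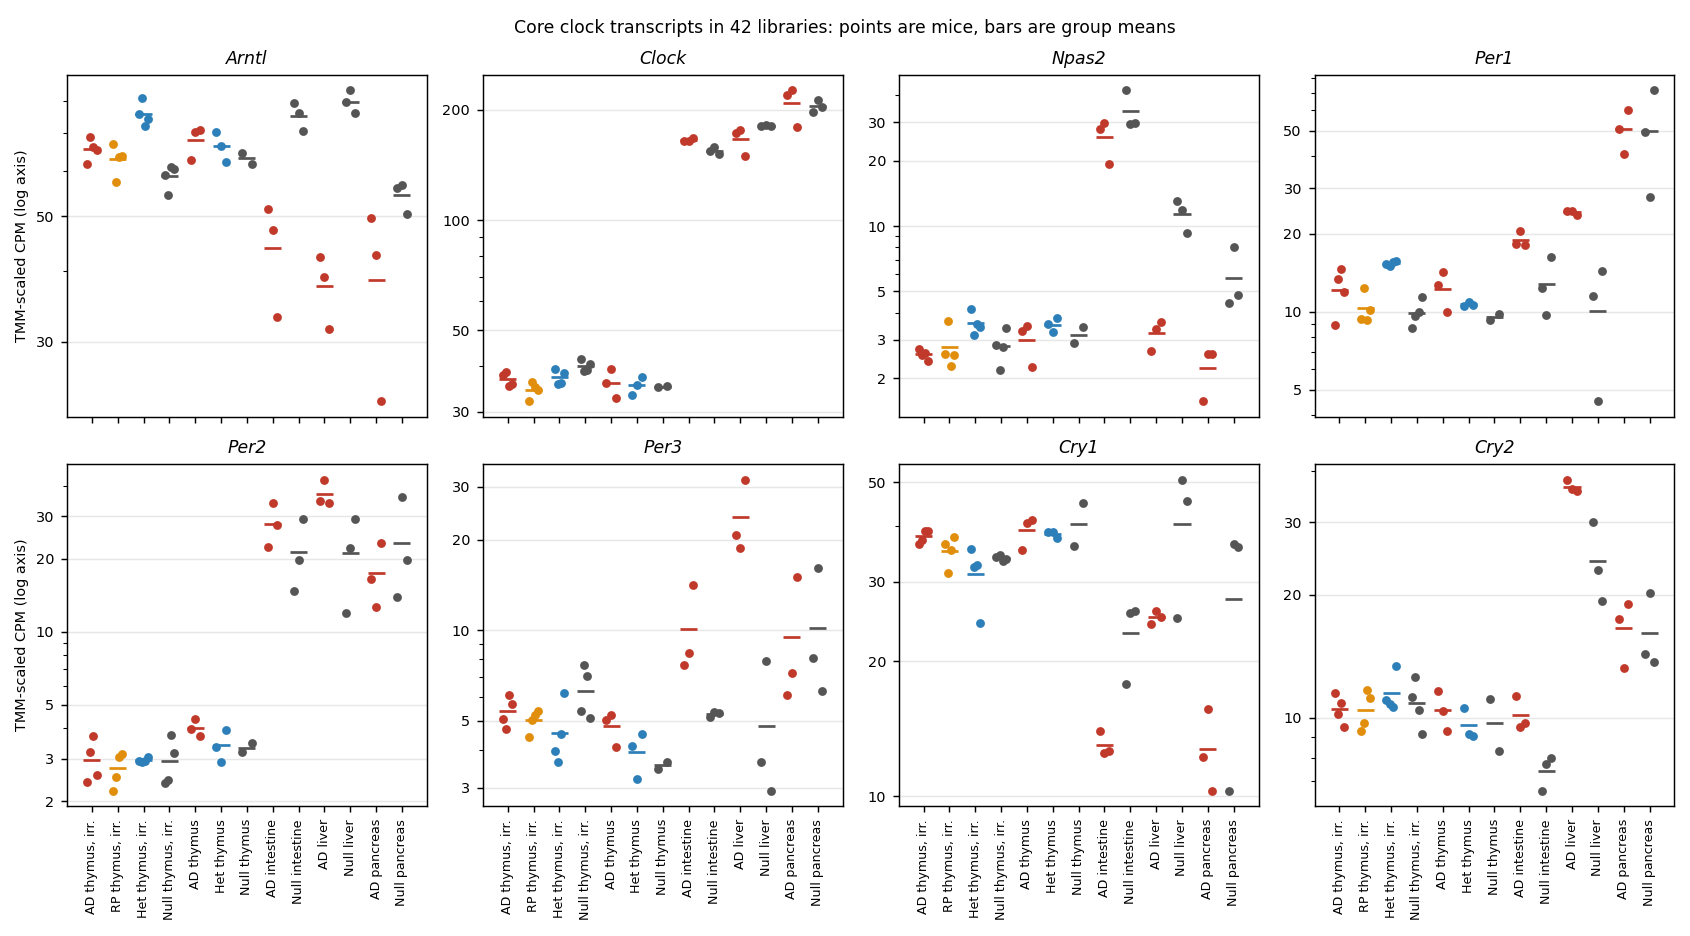
TMM-scaled CPM (log axis) of each clock gene in all 42 libraries by group; each point is 1 mouse and the bar is the group mean. Arntl is lower in AD than in Null liver with no overlap (37.7 against 79.7 CPM), and thymus groups lie far below the other organs for Clock and Per2.

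Relative to the other basal organs, thymus had less Clock and Per2 and more Cry1, and more Arntl on the average of AD and Null mice. Clock in basal AD and Null thymus had a median of 35.2 CPM (range 32.7 to 39.3, n = 5), against medians of 161.4 CPM in intestine, 178.4 CPM in liver and 208.2 CPM in pancreas (n = 6 each). The lowest library of another organ had 149.7 CPM. In thymus relative to the mean of the other 3 organs, Clock was lower by a log2 fold change of -2.24 ± 0.08 (edgeR adjusted p = 1.49e-18). The fit of the organ contrasts had no mouse block, so organs of the same mouse entered as independent libraries. Per2, a repressor whose transcript follows the E-box rhythm, had a median of 3.72 CPM in thymus (3.19 to 4.38) and at least 11.9 CPM in every library of the other basal organs, a log2 fold change of -2.62 ± 0.25 (1.52e-08). Cry1, the repressor that holds the ARNTL dimer inactive late in the cycle, was higher by 0.96 ± 0.18 (0.000123), with 35.4 to 44.9 CPM in thymus, inside the range of liver (24.2 to 50.7 CPM). Arntl was higher by 0.41 ± 0.11 (0.00213), with 61.8 to 70.9 CPM in thymus inside the liver range of 31.5 to 83.5 CPM. The genotypes differed here: mean Arntl in AD thymus (68.1 CPM) lay above AD intestine (44), liver (37.7) and pancreas (38.6 CPM). In Null mice, thymus (63.2 CPM) lay below liver (79.7) and intestine (75.3) and above pancreas (54.4 CPM). The pooled directions of these 4 genes held when libraries were scaled by library size alone (Clock -0.98, Per2 -1.35, Cry1 2.23, Arntl 1.68). Npas2 was also lower in thymus than the mean of the other organs (-1.39 ± 0.16, 2.65e-08). The call was lost with library size alone (-0.13). Its thymus libraries (2.248 to 3.457 CPM) lay inside the pancreas range (1.563 to 7.997 CPM). Mean Npas2 in AD thymus (3.001 CPM) lay above AD pancreas (2.236), and below AD liver (3.226), with overlap, and AD intestine (25.63 CPM). In Null mice, thymus (3.17 CPM) lay below pancreas (5.743), liver (11.4) and intestine (33.79 CPM). Per1 (-0.999), Per3 (-1.05) and Cry2 (-0.59) were lower under TMM but turned to 0.26, 0.21 and 0.67 when libraries were scaled by library size alone. All 8 members were called in this contrast, where 74.2% of all 24431 genes were called too, so the count says nothing particular about the clock. In whole organs, fewer cells that express a gene and less of its RNA per cell cannot be told apart.

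In intestine, Npas2 set the organ apart. Its 6 intestine libraries had a median of 29.5 CPM (19.3 to 42.2), above the highest library of liver (13.03 CPM), pancreas (7.997 CPM) and thymus (3.46 CPM). The log2 fold change over the other organs was 2.81 ± 0.12 (edgeR adjusted p = 3.21e-16), and 3.42 with library size alone. Cry2, the second cryptochrome, was lower in intestine (-1.01 ± 0.11, 1.55e-08), and so were Cry1 (-0.77, 0.00166) and Per1 (-0.44, 0.0458), though Cry1 lost its call with library size alone (-0.16) and Per1 turned to 0.17 there and lost its call with RLE, another scaling by size factors (-0.42, 0.0585). The Per1 call held in 5 of the 23 fits that left out 1 library. Per2 (0.89, 0.000314) and Clock (0.52, 2.86e-08) were higher than the mean of the other organs, in which thymus was lowest. Mean Clock in intestine (160.1 CPM) lay below liver (173.7) and pancreas (206.7 CPM) and above thymus (35.6 CPM). Mean Per2 (24.6 CPM) lay below liver (29.1 CPM), and mean Per1 (15.8 CPM) lay above thymus (11.2 CPM). The 6 calls compare with 63.0% of all genes called.

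Liver was marked by Cry2, and pancreas by Per1. Cry2 had a median of 32.9 CPM in liver (19.3 to 38.2), against 15.9 CPM in pancreas, 10.4 CPM in thymus and 8.72 CPM in intestine, and only the lowest liver library overlapped the highest pancreas library (20.2 CPM). Its log2 fold change in liver was 1.33 ± 0.10 (edgeR adjusted p = 1e-11), and 0.92 with library size alone. Liver also had more Per2 (1.13, 2.16e-05), Clock (0.64, 3.86e-10) and Per3 (0.61, 0.0166) and less Per1 (-0.45, 0.0388), 5 calls of 8 where 70.8% of all genes were called. Mean Clock in liver (173.7 CPM) lay below pancreas (206.7 CPM). The liver values pool the genotypes, which differed for Per3 and Per1. Mean Per3 was highest in AD liver (23.7 CPM), whereas Null liver (4.82 CPM) lay below Null pancreas (10.2) and intestine (5.27 CPM). Mean Per1 in AD liver (24.2 CPM) lay above AD intestine (18.9) and thymus (12.3 CPM). In Null liver it was 10.1 CPM, below Null intestine (12.7 CPM). The Per3 call was lost with library size alone (0.20), without the liver of AD-702 (0.0582) and without that of Null-923 (0.179), and the Per1 call held in 11 of the 23 fits that left out 1 library. Cry1 in liver missed the threshold (0.37, adjusted p = 0.0784) and passed it with the mouse as a block (0.33, 0.0128). Per1, the Period gene that responds fastest to hormones and second messengers, had a median of 50.2 CPM in pancreas (27.8 to 71.8), above every basal AD and Null library of the other organs, whose highest was 24.5 CPM. Its log2 fold change was 1.89 ± 0.17 (7.91e-09), and 0.44 (0.0377) with library size alone. Npas2 (-1.16), Cry1 (-0.55) and Arntl (-0.34) were lower in pancreas under both scalings, whereas Clock (1.085), Per2 (0.60), Per3 (0.55) and Cry2 (0.28) were higher under TMM and turned to -0.38, -0.86, -0.90 and -1.18 with library size alone. Mean Per2 in pancreas (20.3 CPM) lay below intestine (24.6) and liver (29.1 CPM) and above thymus alone (3.74 CPM). Mean Per3 (9.82 CPM) and Cry2 (16.3 CPM) lay below liver (14.3 and 30.4 CPM). Mean Npas2 (3.99 CPM) lay above thymus (3.07 CPM), and mean Cry1 (20.1 CPM) above intestine (18.05 CPM). All 8 were called in pancreas, against 61.8% of all genes. The pancreas of AD-702 carried part of this: without it Arntl (0.0536), Cry1 (0.0729), Per2 (0.0731), Per3 (0.291) and Cry2 (0.118) missed the threshold, which left 3 calls. Per2 (0.104), Per3 (0.275) and Cry2 (0.197) missed it without the pancreas of Null-923, and Cry1 (0.0502) and Cry2 (0.0736) without that of AD-700. Over the 23 fits that left out 1 library, the pancreas call of Per3 held in 13 and that of Cry2 in 18. With no filter on low counts, Per3 (0.106) and Cry2 (0.082) missed it too, as did Per1 in intestine (0.103) and in liver (0.0609). Scaling by library size alone moved the median gene by 1.26 in thymus, 0.60 in intestine, -0.41 in liver and -1.45 in pancreas on the log2 scale, beside which the pancreas values that turned are smaller. Of all genes called, the share that was higher was 58.6% in thymus, 56.2% in intestine, 42.5% in liver and 49.6% in pancreas under TMM, and 84.6%, 85.4%, 29.4% and 12% in the same organs with library size alone.

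In basal liver the activators Arntl and Npas2 were lower in AD than in Null mice, and these were the only calls among the 8 members in the 4 basal organs by this fit. Arntl had 42.4, 39.1 and 31.5 CPM in AD livers, against 79.6, 83.5 and 76.1 CPM in Null livers. Every AD liver was below every Null liver, with means of 37.7 ± 5.55 and 79.7 ± 3.74 CPM (SD, n = 3 each). The log2 fold change was -1.03 ± 0.12, edgeR adjusted p = 0.0104. Npas2, which can stand in for CLOCK in the ARNTL dimer, had 2.68, 3.38 and 3.62 CPM in AD livers, against 13.03, 11.9 and 9.31 CPM in Null livers. These groups did not overlap either (3.23 ± 0.49 and 11.4 ± 1.90 CPM), with a log2 fold change of -1.77 ± 0.25 and edgeR adjusted p = 0.0214. Clock itself did not pass the test (-0.08 ± 0.10), at 173.1, 175.9 and 149.7 CPM in AD livers, against 181.0, 181.8 and 180.9 CPM in Null livers. The 2 calls, both lower, are 2 of 8 members, where 0.267% of all 15755 genes were called, 42 in all. Both calls were lost without AD-700 (adjusted p 0.0531 for Arntl and 0.115 for Npas2), AD-701 (0.134 and 0.169) or Null-923 (0.0504 and 0.0806), while the log2 fold changes stayed between -1.12 and -0.93 for Arntl and between -1.91 and -1.65 for Npas2 as single libraries were left out.

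The Period genes and Cry2 lay on the other side in liver, without passing the test. Per3, the least essential Period gene and the one with D-boxes in the printed window, had 20.7, 18.7 and 31.7 CPM in AD livers, against 3.65, 7.88 and 2.93 CPM in Null livers. Every AD liver was above every Null liver, and the log2 fold change of 2.35 ± 0.42 had an edgeR adjusted p of 0.121. It was called without Null-923 (2.91, adjusted p = 0.00621). Per1 had 24.5, 24.4 and 23.7 CPM in AD livers, against 11.5, 4.50 and 14.3 CPM in Null livers (1.32 ± 0.36, adjusted p = 0.31). The AD livers were nearly equal, while the Null livers spread widely. Per1 lies 470 kb from Trp53 on chromosome 11 (Per1 at 11:69095217-69109960, Trp53 at 11:69580359-69591873, GRCm38), so its genotype groups may also differ in linked sequence, whose part was not tested here. Per2 had 34.7, 42.5 and 33.9 CPM in AD livers, against 11.9, 22.1 and 29.3 CPM in Null livers (0.86 ± 0.30, adjusted p = 0.454). Cry2 had 38.2, 36.2 and 35.7 CPM in AD livers, against 30.1, 22.99 and 19.3 CPM in Null livers (0.66 ± 0.16, adjusted p = 0.196). Both genes were higher in each AD liver than in each Null liver, and without Null-859 Cry2 was called (adjusted p = 0.0401). Cry1 had 24.2, 25.8 and 25.1 CPM in AD livers, against 25.0, 50.7 and 45.3 CPM in Null livers (-0.64 ± 0.24, adjusted p = 0.468), and here Null-859 lay among the AD mice; without it Cry1 was called (adjusted p = 0.0212). With no filter on low counts all members but Clock passed in liver, 7 of 8, and with DESeq2 5 did (Arntl, Npas2, Per1, Per3 and Cry2). The AD and Null livers did not overlap for 7 of the 8 genes, all but Cry1, where 16.1% of all genes tested did not overlap. None of the 7 acinar, 6 hepatocyte, 6 fibroblast or 6 macrophage markers was called between AD and Null liver, the islet markers were at 0 in AD liver and at most at 3.08e-06% of counts in Null liver, and acinar markers summed to at most 0.0985% of counts in AD and 0.00528% in Null liver. Smooth muscle markers summed to 0.00159% to 0.00173% in AD and 0.000978% to 0.00117% in Null liver, with no overlap. B cell markers did not overlap either, at 0.000247% to 0.000292% in AD and 0.000323% to 0.000394% in Null liver. The part of cell composition in the clock values was not tested.

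Other genes of the clock, from a list of 30, were higher in AD liver where they were called. Of 28 tested, 4 were called higher and 0 lower. Dbp, a D-box activator driven directly by ARNTL, had 23.95, 23.9 and 22.7 CPM in AD livers, against 0.791, 1.06 and 0.517 CPM in Null livers (log2 fold change 4.95 ± 0.26, edgeR adjusted p = 1.64e-05). Ciart, a repressor of the ARNTL dimer, averaged 7.56 ± 2.44 CPM in AD livers and 0.560 ± 0.239 CPM in Null livers (3.79 ± 0.42, 0.00672). Nr1d2, which encodes REV-ERB beta, averaged 159.3 ± 14.9 CPM in AD livers and 39.8 ± 7.65 CPM in Null livers (2.05 ± 0.15, 0.000184). Tef, a D-box activator like Dbp, averaged 197.8 ± 18.5 CPM in AD livers and 57.6 ± 9.16 CPM in Null livers (1.83 ± 0.14, 0.000303). As background, Dbp and Nr1d2 are E-box targets of the ARNTL dimer, while Arntl and Npas2 are genes that REV-ERB proteins repress. None of the 9 glucocorticoid-responsive genes tested of a list of 10 was called in liver.

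In intestine and pancreas no member was called by edgeR with the filter on low counts. DESeq2 called 3 members in intestine, Arntl (adjusted p = 0.00185), Cry1 (0.00144) and Per3 (0.0185). Without the filter edgeR called Arntl (0.0257) and Cry1 (0.00303) in intestine and Npas2 (0.0388) in pancreas. In intestine, Arntl had 51.5, 47.3 and 33.2 CPM in AD mice, against 79.2, 76.1 and 70.6 CPM in Null mice, with no overlap (log2 fold change -0.77 ± 0.15, edgeR adjusted p = 0.306). Cry1 had 13.96, 12.5 and 12.6 CPM in AD intestines, against 17.8, 25.6 and 25.8 CPM in Null intestines (-0.82 ± 0.15, adjusted p = 0.199), and it was called without Null-859 (-0.98, adjusted p = 0.0307). Per3 had 7.67, 8.41 and 14.1 CPM in AD intestines, against 5.14, 5.34 and 5.32 CPM in Null intestines (0.94 ± 0.23, adjusted p = 0.465). The Null intestines were nearly equal and every AD intestine was above them. Per1 had 18.3, 20.5 and 18.02 CPM in AD intestines, against 12.3, 9.71 and 16.2 CPM in Null intestines (0.57 ± 0.17, adjusted p = 0.653). Cry2 had 11.3, 9.49 and 9.71 CPM in AD intestines, against 6.64, 7.71 and 7.96 CPM in Null intestines (0.45 ± 0.14, adjusted p = 0.727). Clock was also higher in each AD intestine (164.1 to 167.2 CPM) than in each Null intestine (151.7 to 158.6 CPM), by 0.09 on the log2 scale, while Npas2 (-0.40 ± 0.20) and Per2 (0.40 ± 0.28) overlapped. In all, 6 of 8 members did not overlap, against 12.2% of all 20011 genes tested, and 3 genes of the table (0.0150%) were called. The highest acinar share lay in the intestine of AD-702, which also had the lowest Arntl and the highest Per3 there. Fibroblast markers summed to 0.110% to 0.162% of counts in AD and 0.165% to 0.2005% in Null intestine, with no overlap. The part of the acinar and fibroblast shares in these values was not tested. Of the other clock genes 0 of 29 were called.

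In pancreas, Arntl had 49.6, 42.6 and 23.5 CPM in AD mice, against 56.0, 56.9 and 50.4 CPM in Null mice, with no overlap (log2 fold change -0.53 ± 0.22, edgeR adjusted p = 0.565). Npas2 had 1.56, 2.57 and 2.57 CPM in AD pancreases, against 4.43, 7.997 and 4.80 CPM in Null pancreases (-1.37 ± 0.36, adjusted p = 0.277). These values rest on 11, 21 and 21 counts in AD mice and 34, 55 and 35 counts in Null mice. Arntl and Npas2 were the 2 members of 8 that did not overlap, against 13.4% of all 14604 genes tested, of which 8 (0.0548%) were called. Cry1 had 12.2, 15.7 and 10.3 CPM in AD pancreases, against 10.3, 36.4 and 35.8 CPM in Null pancreases. Null-859 again lay with the AD mice: with it the log2 fold change was -1.12 ± 0.46 (adjusted p = 0.623), and without it -1.50 (adjusted p = 0.00728). Per1 (0.00), Cry2 (0.01) and Per3 (-0.12) had fold changes near 0, and Per2 had -0.43. Per1 spread widely within both groups, with 50.9, 40.7 and 60.2 CPM in AD pancreases, against 49.5, 27.8 and 71.8 CPM in Null pancreases. Among 28 other clock genes tested, 2 were called, both higher in AD: Nr1d1, which encodes REV-ERB alpha (21.2 ± 6.77 CPM in AD, 4.13 ± 1.19 CPM in Null pancreas; 2.31 ± 0.29, adjusted p = 0.00408), and Nr1d2 (70.7 ± 4.25 CPM in AD, 23.96 ± 5.15 CPM in Null pancreas; 1.53 ± 0.17, adjusted p = 0.00136). Acinar markers held a larger share of AD than of Null pancreas counts, as given above, and none of the 7 was called.

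Basal thymus showed small values. None of the members was called between AD and Null (15 genes called, 0.0676% of 22173), Het and Null (15 genes, 0.0676%), or AD and Het (0 genes by edgeR, 775 at an unadjusted p under 0.05 and 12 by DESeq2). Arntl had 62.8, 70.5 and 70.9 CPM in AD thymus, against 64.7 and 61.8 CPM in Null thymus (0.12 ± 0.08), and the groups overlapped. Per1 (0.39 ± 0.14, adjusted p = 0.493), Per2 (0.29 ± 0.18, 0.757) and Per3 (0.45 ± 0.18, 0.572) were higher in each of 3 AD than in each of 2 Null thymuses, where 22.5% of all genes did not overlap. Between Het and Null 1 member did not overlap, with 24.1% of all genes, and between AD and Het 0 members, with 9.28%. Adipocyte markers summed to 0.034% to 0.044% of counts in AD and 0.012% to 0.013% in Null thymus. Fibroblast markers (0.059% to 0.081% in AD, 0.036% to 0.047% in Null) and smooth muscle markers (0.0097% to 0.0102%, 0.0064% to 0.0077%) did not overlap either. Islet markers lay the other way, at 0.000105% to 0.000163% in AD and 0.000241% to 0.0003005% in Null thymus. The part of these marker shares in the clock values was not tested. A test of whether the AD-minus-Null difference itself varied over the 4 organs called 42 of 24431 genes (0.172%) and none of the members, with adjusted p of 0.0834 for Npas2, 0.225 for Per3 and 0.274 for Arntl. With the mouse as a block, Per3 passed (0.0371). With no filter on low counts Npas2 passed (0.027), and without the pancreas of AD-702 Arntl did (0.028). Of the other clock genes, Dbp (6.61e-05), Ciart (0.000311) and Nr1d2 (0.00416) passed this test. The 4 AD-Null comparisons use organs of the same mice and are not independent of each other.

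**Figure D3:**
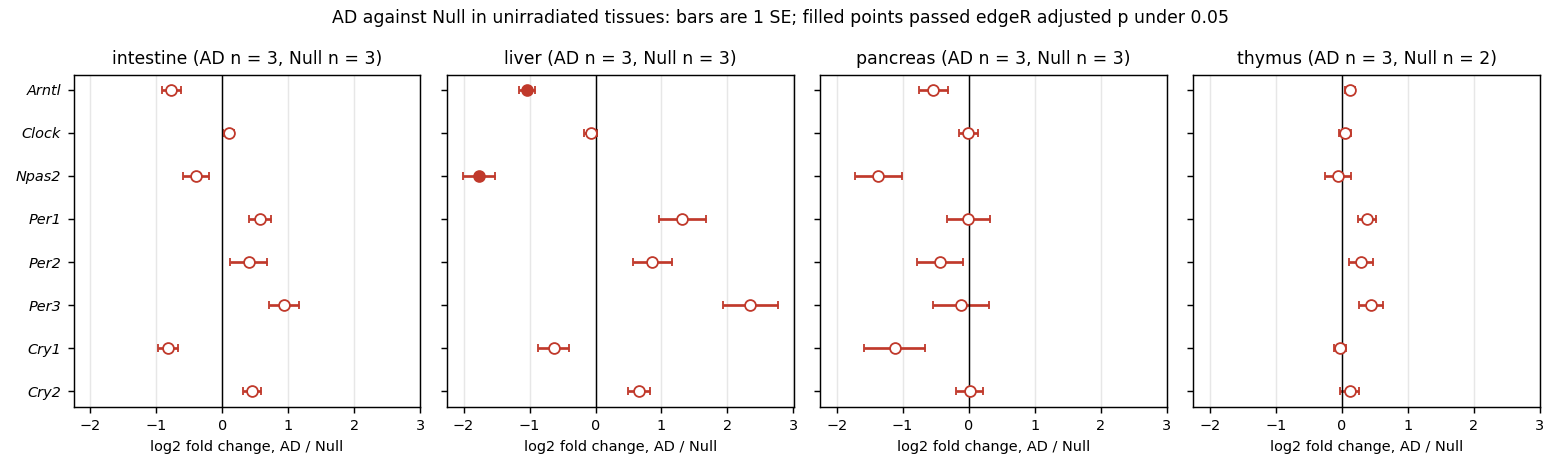
Log2 fold change of AD over Null (± 1 SE, edgeR) for each clock gene in the 4 basal organs; filled symbols passed an adjusted p of 0.05. Arntl and Npas2 in liver (-1.03 and -1.77) are the 2 filled symbols, and Per3 in liver lies highest at 2.35.

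The spread between mice was itself uneven. In AD liver, the within-group SD of log2 CPM was 0.03 for Per1, 0.40 for Per3, 0.18 for Per2 and 0.05 for Cry1, while the median over all genes was 0.19. In Null liver Per1 had 0.88, Per3 0.74, Per2 0.66 and Cry1 0.55, with an all-gene median of 0.20. In AD pancreas Per3 had 0.69 and Arntl 0.57, with an all-gene median of 0.23. In Null pancreas Cry1 had 1.04 and Per3 0.70, with an all-gene median of 0.26. In Null mice Arntl and Clock spread less, at 0.07 and 0.00 in liver and 0.10 and 0.05 in pancreas. These SDs come from 3 mice each and were not tested. Some mice kept their place across organs, a pattern picked out after the values were seen. AD-702 had the lowest Arntl and the highest Per3 of the AD mice in intestine, liver and pancreas, and not in thymus, where its Arntl (70.9 CPM) was the highest of the AD mice and its Per3 (4.11 CPM) the lowest. Null-859 had the lowest Cry1 of the Null mice in thymus (36.0 CPM), intestine (17.8 CPM), liver (25.0 CPM) and pancreas (10.3 CPM). These are also the 2 Xist-high mice, and the part of sex in their values was not tested. Null-923 had the lowest Per1 of the Null mice in intestine (9.71 CPM), liver (4.50 CPM) and pancreas (27.8 CPM), and the highest Per3 in each of these organs (5.34, 7.88 and 16.1 CPM), by little in intestine. In thymus its Per1 was the higher of the 2 Null mice (9.76 CPM, against 9.285 CPM in Null-859).

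**Figure D4:**
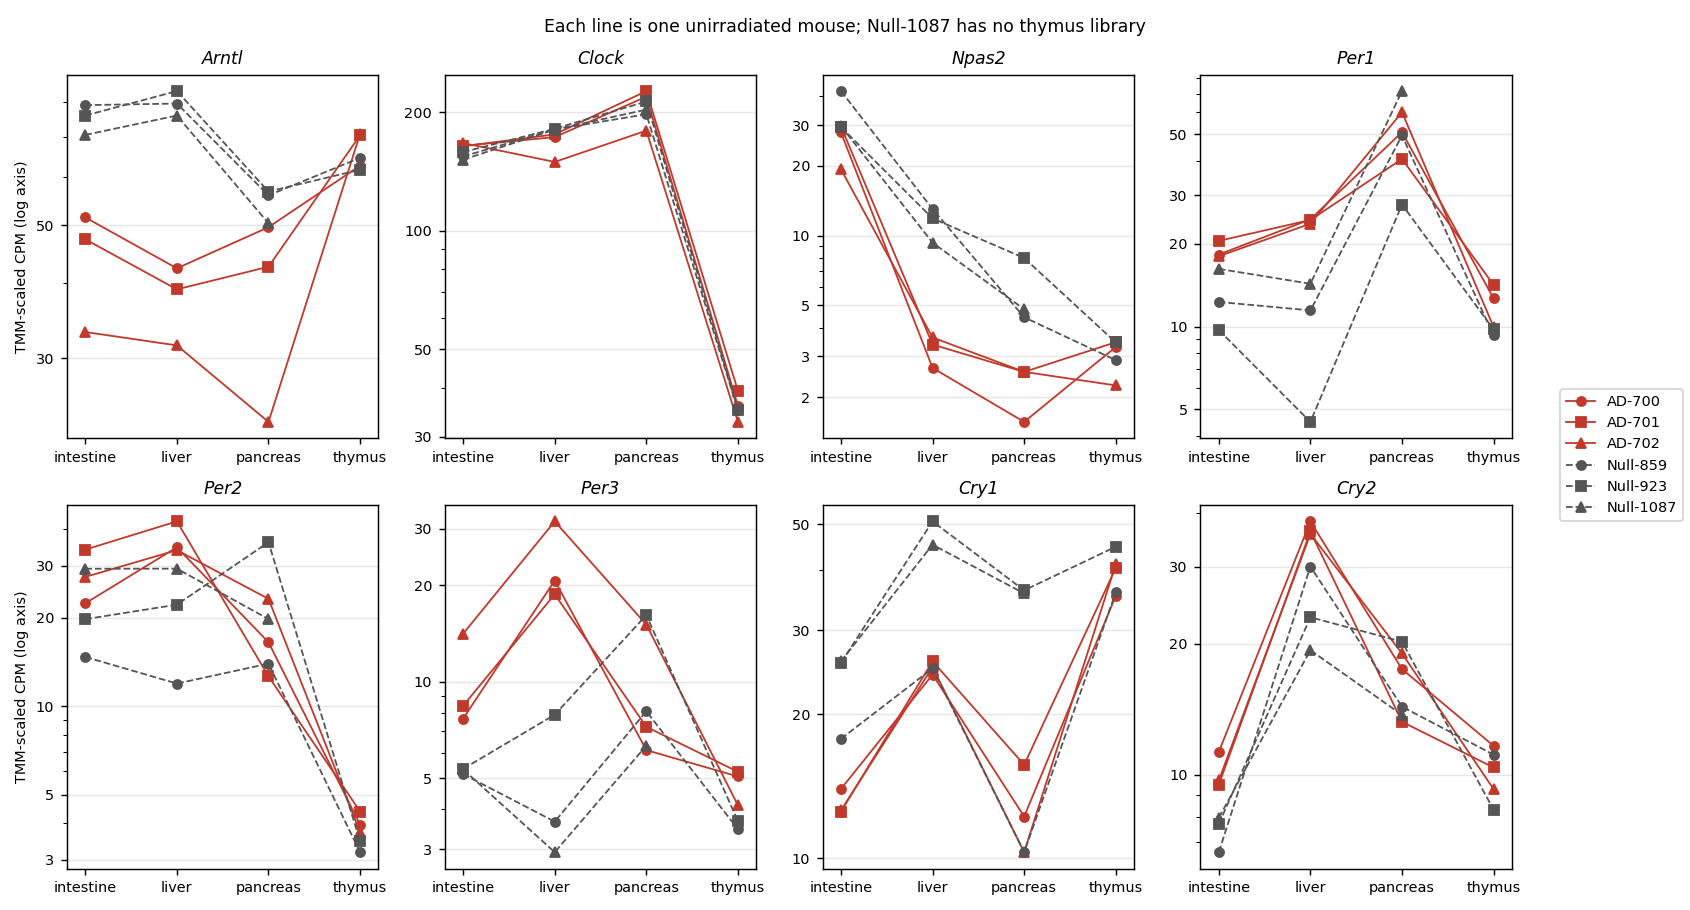
TMM-scaled CPM (log axis) of each clock gene in the basal organs of single mice; each line joins the organs of 1 AD or Null mouse. Null-859 has the lowest Cry1 line of the Null mice in every organ, and AD-702 the lowest Arntl of the AD mice outside the thymus.

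In irradiated thymus, Het mice had more Arntl and Per1 than Null mice. Arntl had 75.8, 80.8, 72.3 and 74.4 CPM in Het thymus, against 59.1, 54.5, 61.1 and 60.7 CPM in Null thymus. No Het library overlapped a Null library (75.8 ± 3.63 and 58.8 ± 3.03 CPM, SD, n = 4 each), and the log2 fold change was 0.34 ± 0.06, edgeR adjusted p = 0.000391. Per1 had 15.3, 14.95, 15.6 and 15.7 CPM in Het thymus, against 8.65, 9.60, 9.96 and 11.4 CPM in Null thymus. The 4 Het mice were nearly equal and all above the Null mice (0.61 ± 0.13, adjusted p = 0.00282), and its position near Trp53, given above, applies here too. Per3 had 3.96, 3.65, 4.51 and 6.19 CPM in Het thymus, against 5.41, 7.66, 7.05 and 5.11 CPM in Null thymus. Here the highest Het mouse lay above 2 Null mice, and the call was marginal (-0.49 ± 0.17, adjusted p = 0.0456). Clock (-0.13 ± 0.06), Cry1 (-0.14 ± 0.09), Npas2 (0.33 ± 0.16), Cry2 (0.05 ± 0.11) and Per2 (-0.02 ± 0.17) did not pass. The 3 calls of 8, with 2 higher and 1 lower, compare with 19.2% of all 22206 genes called, and the 2 members without overlap with 18.4% of all genes, and the median member moved by 0.02. Without Het-595, Arntl (0.32, 0.00181) and Per1 (0.64, 0.00603) stayed called and Per3 (-0.38, 0.167) did not; fitted on the 2 groups alone, Per3 missed as well (0.173), as it did without Het-594 (0.143) or Het-603 (0.106) or Null-604 (0.14) or Null-856 (0.115). Thymic epithelium markers summed to 0.107% to 0.120% of counts in irradiated Het thymus and 0.069% to 0.0755% in irradiated Null thymus, with 3 of 5 called higher in Het; 2 of 9 thymocyte, 2 of 4 smooth muscle and 1 of 6 macrophage markers were also called higher. The part of these cells in the clock values was not tested.

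Between AD or RP and Null, and between AD and RP, no member was called in irradiated thymus. AD against Null called 6 genes of 22206 (0.0270%; 1774 at an unadjusted p under 0.05, 97 by DESeq2), RP against Null 7 (0.0315%; 1151 and 31), and AD against RP 0 (0%; 1525 and 17). In AD thymus, Arntl had 61.9, 69.1, 66.3 and 65.5 CPM, each above the Null values given, by 0.17 ± 0.06 (adjusted p = 0.473). Per1 had 8.85, 13.4, 14.6 and 11.9 CPM in AD thymus and overlapped with Null (0.31 ± 0.13, adjusted p = 0.566). Cry1 had 36.5, 37.1, 39.0 and 38.9 CPM in AD thymus, against 34.1, 34.4, 33.4 and 33.7 CPM in Null thymus (0.17 ± 0.09, adjusted p = 0.66). In RP thymus, Clock had 32.0, 36.0, 35.0 and 34.4 CPM, against 41.7, 38.8, 38.9 and 40.5 CPM in Null thymus (-0.23 ± 0.06, adjusted p = 0.534). Members without overlap were 3 in AD against Null (Arntl, Cry1 and Clock, the last lower in AD) and 1 in RP against Null, where 5.26% and 4.17% of all genes did not overlap. Between AD and RP it was 0 members and 7.80% of all genes.

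Set against Het, 2 members were lower in RP and 1 was higher in AD. Arntl had 67.2, 57.5, 63.5 and 63.9 CPM in RP thymus, below each Het value (-0.25 ± 0.06, edgeR adjusted p = 0.005). Per1 had 9.41, 12.3, 9.29 and 10.1 CPM in RP thymus, also below each Het value (-0.56 ± 0.13, adjusted p = 0.00548). In this comparison 18.7% of all genes were called, and 22.1% did not overlap between RP and Het. Cry1 in AD thymus, given above, exceeded the Het values of 35.6, 32.5, 32.8 and 24.3 CPM without overlap (0.31 ± 0.09, adjusted p = 0.0216, with 14.0% of all genes called). Arntl (-0.17 ± 0.06, 0.053), Npas2 (-0.44 ± 0.16, 0.0807) and Per1 (-0.30 ± 0.13, 0.138) were lower in each AD than in each Het library without passing the test; 4 of 8 members and 17.2% of all genes did not overlap. Without Het-595, the values were -0.23 (0.0187) for Arntl and -0.59 (0.0111) for Per1 in RP, and 0.31 (0.0428) for Cry1 in AD. The Cry1 call was lost on the 2 groups alone (0.29, 0.086), without AD-726 (0.0618) and without AD-727 (0.0529). Without Het-631, Per3 (0.0362) and Arntl (0.043) were called between AD and Het as well, as was Arntl without Het-603 (0.0397), and without RP-653 Npas2 was called between RP and Het (0.0278). All comparisons with Het rest on the same 4 Het libraries, and all those with Null on the same 4 Null libraries.

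Against basal thymus of the same genotype, Per1 was higher and Cry1 lower in irradiated Het mice. Per1, at 14.95 to 15.7 CPM in irradiated Het thymus, compared with 10.5, 10.9 and 10.6 CPM in basal Het thymus (0.49 ± 0.14, edgeR adjusted p = 0.0139). Cry1, at 24.3 to 35.6 CPM in irradiated Het thymus, compared with 38.8, 38.7 and 37.5 CPM in basal Het thymus (-0.33 ± 0.09, adjusted p = 0.0129). Neither pair of groups overlapped. Both stayed called without Het-595 (0.51, 0.0232 for Per1 and -0.34, 0.0207 for Cry1), and the Per1 call was lost without basal Het-697 (0.48, 0.0527). These 2 calls compare with 16.8% of all 23605 genes called, and the 4 members without overlap with 24.5% of all genes. No member was called in irradiated against basal AD thymus (129 genes, 0.546%; 0 members and 14.5% of all genes without overlap), where Per1 had a log2 fold change of 0.00 ± 0.14 and Per2 of -0.43 ± 0.17 (adjusted p = 0.292). No member was called in Null thymus (31 genes, 0.131%), where Per3 had 5.41, 7.66, 7.05 and 5.11 CPM in irradiated mice, against 3.46 and 3.67 CPM in basal mice (0.85 ± 0.20, adjusted p = 0.106, and 0.00773 by DESeq2). There 4 members and 15.8% of all genes did not overlap. The difference of the responses called no member. For Per1 it was 0.42 ± 0.21 between Het and Null (adjusted p = 0.341; 3.44% of all genes called) and 0.50 ± 0.19 between Het and AD (0.18; 3.98%), so a Per1 response that differs by genotype was not shown. Without Het-595 the Per1 values were 0.43 (0.39) and 0.51 (0.21). For Per3 it was -0.67 ± 0.27 between Het and Null (0.2), with -0.57 (0.331) without Het-595, and it was called without irradiated Het-631 (0.0311). The AD and Null responses differed for 0 genes by edgeR (972 at an unadjusted p under 0.05, 2 by DESeq2).

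**Figure D5:**
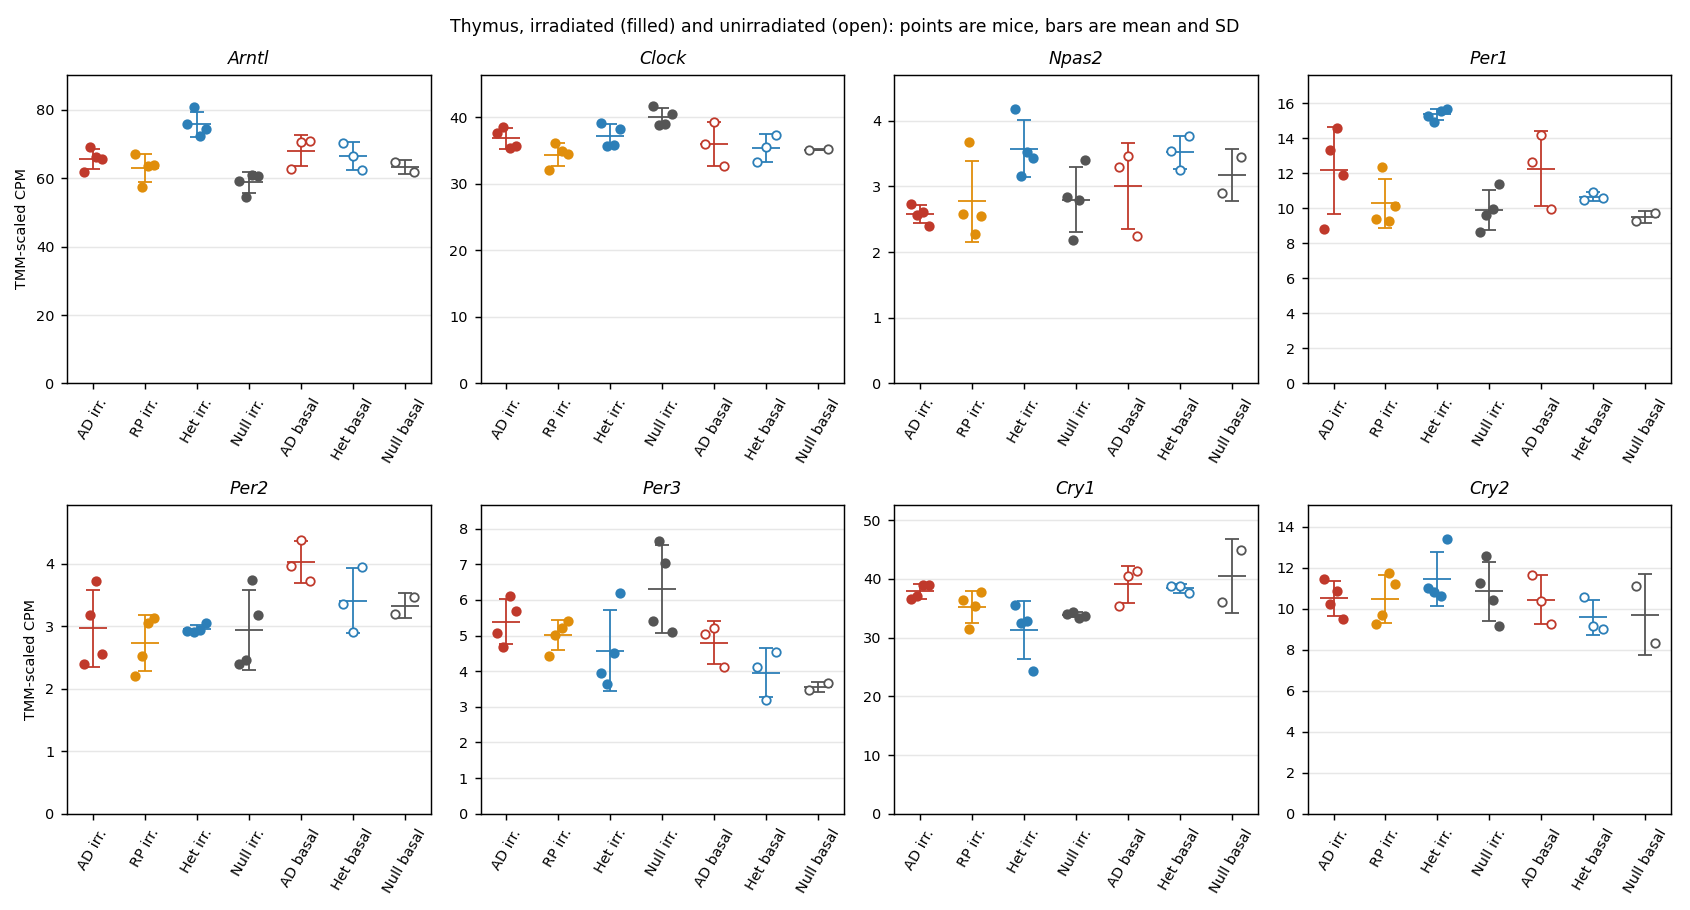
TMM-scaled CPM (linear axis) of each clock gene in irradiated (filled) and basal (open) thymus by genotype, with the mean and SD; each point is 1 mouse. Per1 in irradiated Het thymus lies at 14.95 to 15.7 CPM, above basal Het (10.5 to 10.9 CPM) and irradiated Null (8.65 to 11.4 CPM).

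Around the loop, the D-box regulators Nfil3 and Tef and the E-box repressor Bhlhe40 were higher in irradiated Het than in irradiated Null thymus, while Dbp (0.24 ± 0.14, adjusted p = 0.258) and Hlf (-0.01 ± 0.35, 0.991) did not pass the test. Of 29 other clock genes tested against Null, 4 were called higher and 4 lower, where 19.2% of all genes were called. Bhlhe40 averaged 12.95 ± 0.52 CPM in Het and 8.25 ± 0.94 CPM in Null thymus (0.63 ± 0.09, edgeR adjusted p = 4.6e-05). Nfil3, the D-box repressor, averaged 6.24 ± 1.27 CPM in Het and 3.53 ± 0.62 CPM in Null thymus (0.80 ± 0.16, 0.00179), and Tef 32.1 ± 2.07 and 21.02 ± 2.39 CPM (0.59 ± 0.09, 9.83e-05). Tipin, a partner of Timeless at replication forks, averaged 32.3 ± 4.17 CPM in Het and 47.8 ± 4.79 CPM in Null thymus (-0.59 ± 0.10, 0.000419). Against Het, AD had 4 called higher and 3 lower, among them Bhlhe40 at -0.74, Nfil3 at -0.63, Tef at -0.57 and Tipin at 0.46 (14.0% of all genes called), and RP had 4 higher and 5 lower, among them Bhlhe40 at -0.84, Tef at -0.76, Nfil3 at -0.64 and Tipin at 0.64 (18.7%). Against basal Het thymus, irradiated Het thymus had 5 called higher and 4 lower, where 16.8% of all genes were called, led by Bhlhe40 (0.86), Nfil3 (0.82), Tef (0.65) and Skp1a (-0.45). The response itself differed between Het and AD for Bhlhe40 (0.95 ± 0.19, 0.00244), Nfil3 (0.94 ± 0.26, 0.0365), Tef (0.77 ± 0.13, 0.000292) and Ppp1cb (-0.35 ± 0.09, 0.0272), and between Het and Null for Tef (0.55 ± 0.13, 0.0195) and Cul1 (-0.33 ± 0.08, 0.0141). Without Het-595, all 8 called genes of the clock list stayed called against Null and all 9 against basal Het thymus, as did 6 of 7 in AD against Het and 8 of 9 in RP against Het. Nfil3 then missed the threshold in AD against Het (-0.51, 0.0537) and in the response difference between Het and AD (0.81, 0.0879), and the other named response differences stayed called. Glucocorticoid-responsive genes, a list read here because Per1 is induced by these hormones, moved unevenly in irradiated Het against Null thymus, with 5 of 10 called higher and 1 lower where 19.2% of all genes were called. The named ones were Errfi1 (1.76 ± 0.18), Mt2 (1.33 ± 0.39), Mt1 (1.19 ± 0.22) and Ddit4 (1.19 ± 0.32), and the lower one was Fkbp5 (-0.48 ± 0.10). Against Het, AD and RP each had 1 called higher and 3 lower, and no gene of this list was called for either against Null. Without Het-595, 5 of the 6 calls between Het and Null remained, without Mt2 (1.24, 0.0616), and against Het 4 of 4 remained in AD and 3 of 4 in RP. What moves with this list was not tested for its part in the Per1 value.

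As a description of which genes vary with the members, correlations of log2 CPM deviations from the group mean were taken over the 42 libraries among 11596 genes with a mean of at least 1 CPM in all 13 groups. These points share library depth, scaling and, in basal organs, the mouse. Cry1 had the closest companions: Ppp1r15b at r = 0.88, Sar1a at 0.87 and Ppp6c at 0.84. Arntl was closest to Gm5558 (0.78), Trappc8 (0.76) and Tmem87b (0.74), Per3 to Zswim3 (0.77), Cyp26b1 (0.76) and Bahcc1 (0.74), and Per1 to Pim3 (0.76), Junb (0.73) and St3gal5 (0.72). Per2 was closest to Tshz1 (0.76), Lpar1 (0.67) and 4931406P16Rik (0.66), Npas2 to Epha1 (0.70), Abcb1a (0.64) and Slc2a4rg-ps (0.63), Clock to Nr6a1 (0.66), Ttll4 (0.64) and Gm45221 (0.63), and Cry2 to Fam110a (0.65), Wdr62 (0.64) and Exo1 (0.64). Within the family, the values in the 18 libraries of intestine, liver and pancreas were 0.74 for Arntl with Clock, -0.54 for Arntl with Per3, -0.61 for Per1 with Per3 and 0.57 for Per2 with Cry1. In AD-702 the deviations in these organs were -0.38, -0.24 and -0.64 for Arntl. They were 0.02, -0.15 and -0.21 for Clock and 0.54, 0.46 and 0.78 for Per3. Correlations without this mouse were not taken. In the 24 thymus libraries, Arntl with Clock had -0.31, and the highest values were 0.60 for Clock with Npas2, 0.52 for Npas2 with Per1 and 0.51 both for Per1 with Per2 and for Per3 with Cry2. Over the 13 group means, where organ differences dominate, Per3 was closest to the REV-ERB gene Nr1d2 (0.83), then Fbxo30 (0.81) and Atxn2 (0.80). Clock was closest to Magi1 (0.998), P4hb (0.998) and Rhou (0.997), Per2 to Nr6a1 (0.99), Pkp4 (0.99) and Bri3 (0.99), and Cry2 to Usp30 (0.98), Mtss1 (0.98) and Slc8b1 (0.97). Npas2 was closest to Leprot (0.97), Fam84a (0.96) and Dnase1l1 (0.95), Per1 to Ppp1r13l (0.96), Ipo13 (0.96) and Ccdc191 (0.95), and Cry1 to Gfra2 (0.96), Trmo (0.92) and Tbce (0.92). Arntl, with the narrowest range over groups, had the lowest such values, with Fam57a (0.80), B330016D10Rik (0.78) and Tspan18 (0.76).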

How the data were processed

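RNA-seq of total RNA from 42 organ samples, 1 library each, was deposited as 1 table of raw counts per gene with Ensembl identifiers. The submitters' processing notes name the aligner STAR (2.6.0b), the build GRCm38 and the package DESeq2; the counting tool, annotation release and strand setting are not given in the sources used here. The counts were used as the authors deposited them. Of 49585 identifiers, 49326 matched GENCODE M21 and 259 did not, 0.522% of all. No column was left without a sample. The names of 8 basal thymus columns carry no tissue and were assigned by animal number and by elimination.

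Counts were tested with edgeR 4.0.16 (R 4.3.3), robust quasi-likelihood, filterByExpr and TMM scaling, with Benjamini-Hochberg adjustment over all genes tested and a call at an adjusted p under 0.05. The 16 irradiated thymus libraries, the 8 basal thymus libraries and the 6 libraries of each other organ were fitted apart. All 24 thymus libraries entered the irradiation contrasts, and 23 basal AD and Null libraries the organ contrasts. In all, 23 comparisons were fitted. CPM levels use TMM sizes over all 42 libraries, so they need not sum to the same total in each library, and pancreas, where a few genes take much of the counts, sums highest. Correlations used log2 CPM with a prior count of 2. Alternatives were RLE scaling, no filter, DESeq2 1.42.0, the 2 groups alone, each library left out, a mouse block and, added after seeing the data, library size alone. The fit was tested on simulated counts. Named genes were the 8 members, the 3 genes most like each, up to 4 called genes by size of change from each of the 2 other lists, and genes added for single sentences. The members and lists were chosen with earlier results of these data known.

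The same mouse gave several basal organs, by the animal numbers in the labels. Over 33 same-mouse pairs of organs and 11636 genes, deviations from group means correlated between -0.034 and 0.388 (median 0.154), 22 pairs above 0.1. No 2 libraries of a group were copies (smallest chi-square per degree of freedom 4.04 over 49 pairs). Each library is 1 organ of 1 mouse, so p-values of comparisons within an organ measure the spread between mice. In the organ contrasts and the AD-Null difference across organs, the main fit took organs of the same mouse as independent libraries. Those p-values do not measure the spread between mice.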

Additional observations from a re-analysis of the deposited data

Results flagged for a closer look

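Cry2 in the irradiated thymus of Het-631 lay apart from its group, at 13.4 CPM, while the nearest of the other 3 Het mice had 11.03 CPM. It was the 1 set flagged for a library far from the others among 32 sets of 4 libraries examined (8 genes in 4 groups), and chance flags about 1 in 20 such sets. The same library had the lowest Cry1 (24.3 CPM) and the highest Per3 (6.19 CPM) of the irradiated Het mice.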

How the results depend on the processing

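RLE scaling left the count of clock genes called within 1.5 times its value in all 23 comparisons and ended 1 call, Per1 in intestine against the other organs (adjusted p = 0.0585). For AD against Null with no filter on low counts, the count was 7 in liver in place of 2, 2 in intestine, 1 in pancreas and 1 for the difference across organs, each in place of 0. It also ended 4 calls between organs, Per1 in intestine and liver and Per3 and Cry2 in pancreas. DESeq2 gave 5 for liver and 3 for intestine, 3 for AD against Het in irradiated thymus and 1 for irradiated against basal Null thymus, where edgeR gave 2, 0, 1 and 0. Fitted on the 2 groups alone, AD against Het gave 0. With library size only, thymus against the other organs gave 5 in place of 8, and 8 directions turned: in thymus Per1 to 0.264, Per3 to 0.207 and Cry2 to 0.674, in intestine Per1 to 0.165, and in pancreas Clock to -0.379, Per2 to -0.860, Per3 to -0.898 and Cry2 to -1.18. The cause was not tested.

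The mouse as a replicate block gave 1 called gene in the AD-Null difference across organs (Per3, adjusted p = 0.0371) in place of 0, and Cry1 in liver; it changed no other call. No paired analysis was possible within an organ or in irradiated thymus because the groups compared share no animal number.

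With single libraries left out, the count ran from 0 to 3 for AD against Het (0 without AD-726 or AD-727, 2 without Het-603, 3 without Het-631), 2 to 3 for Het against Null and RP against Het, 0 to 1 in intestine and pancreas (1 without Null-859), 0 to 4 in liver (0 without AD-700 or AD-701, 1 without Null-923, 4 without Null-859), 0 to 1 for the Het-Null response difference (1 without Het-631), 1 to 2 for irradiated against basal Het, 5 to 6 for intestine against the other organs, 3 to 6 for liver (3 without the liver of AD-702 or Null-923) and 3 to 8 for pancreas (3 without the pancreas of AD-702, 5 without that of Null-923), and 0 to 1 for the AD-Null difference across organs. Counts over all genes moved more: AD against Null in liver had 42 genes, 3 to 87 with a library left out, 454 with no filter and 205 with DESeq2; pancreas 8, 209 and 49; intestine 3, 50 and 106 (6 with RLE); AD against Null in irradiated thymus 6, 15 and 97; Het against Null 4257, and 2208 on the 2 groups alone. Depth limits Npas2 in pancreas most, at 11 to 55 counts.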
